A study of Mus musculus with 9 samples.

Results

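The 10 genes described here encode the enzymes of de novo lipogenesis and 2 of the transcription factors that switch them on: Srebf1, Mlxipl, Acly, Me1, Acaca, Acacb, Fasn, Elovl6, Scd1 and Scd2. They were chosen by symbol, by matching the Ensembl gene identifiers of the deposited tables to the GENCODE M1 annotation. All 10 had a row in both tables, out of 13643 genes listed in at least 1 of them. The libraries were made from AML12, a hepatocyte line established from mouse liver, infected with lentivirus that carried a short hairpin RNA (shRNA) and collected on day 5. There were 3 libraries of each group: a first hairpin against Srrm2 (Srrm2 shRNA 1), a second (Srrm2 shRNA 2) and a control hairpin. All cells were kept in medium with serum, insulin, transferrin, selenium and dexamethasone. Srrm2 encodes a scaffold protein of nuclear speckles, and the study compared each of its hairpins with the control hairpin.

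The values used here have a firm limit. Each table gives 1 mean normalized count per gene over all libraries of a comparison, control and knockdown together, and no value per library. Its other columns hold the authors' own comparison with the control hairpin and were not used. The table for shRNA 1 is called the sh1 table below, and that for shRNA 2 the sh2 table. From the pooled means alone, no direction against the control hairpin and no standard deviation can be given, and no test was made. The knockdown itself could not be checked in each library either: the mean of Srrm2 was 3428 in the sh1 table and 3759 in the sh2 table. The labels of all 3 control libraries name the sh1 table, whereas only 1 of the 3 names the sh2 table and the other 2 name tables not analysed here. Depth per library is unknown, and nothing in the labels says that the libraries of a group came from separate cultures. What can be described is the level of each gene in these cells, the balance between related genes and the difference of the pooled level between the tables. The share of each transcript's sequence that also stands elsewhere in the genome can be given too.

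De novo lipogenesis makes fatty acids from carbohydrate. Citrate that leaves the mitochondrion is cleaved to acetyl-CoA, carboxylated to malonyl-CoA, and built by fatty acid synthase into palmitate with reducing power from NADPH, after which elongases and desaturases produce longer and monounsaturated acids. In liver the pathway is controlled largely through transcription, by SREBP-1c in response to insulin and by ChREBP in response to carbohydrate, and both insulin and a glucocorticoid were present in this medium.

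As a check of the cell type, 12 of 14 hepatocyte markers had a row in both tables, with summed means of 45384 in the sh1 table and 46553 in the sh2 table. Most of that sum came from Apob (20192 and 22608), Krt18 (9848 and 8953) and Krt8 (8292 and 7840), and bile duct cells also express these 2 keratins. Other hepatocyte markers were low, with means in the sh1 table of 26.2 for Cps1, 39.4 for Apoa1 and 87.2 for Fga, and 8 of the 12 were above the coding gene median per kb. No row matched the symbols Apoa2 and Tf. Markers were matched by symbol alone, so a gene that GENCODE M1 lists under another name would appear to have no row. Of 4 cholangiocyte markers, 3 had rows (Krt19, Krt7 and Sox9), and their summed means were 4871 and 5120, so hepatocyte and bile duct markers were both present in the line. Markers of other cell types were low or had no row under the symbol used. No endothelial or adipocyte marker of 3 each had a row, and 2 of 5 stellate cell markers summed to 11.9 and 9.66. For leukocytes, 2 of 3 markers summed to 30.4 and 35.3. No row matched the symbol Adgre1, the remaining leukocyte marker, and its absence under any other name was not established. In pooled bulk means, fewer cells of a type and less RNA per cell cannot be told apart.

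The messages of the pathway stood at levels that spanned almost 3 orders of magnitude from gene to gene. To compare genes, each mean was divided by the length in kilobases of the gene's longest coding transcript, and these levels are given as means per kb. Scd2 was the highest at 1168 per kb in the sh1 table and 1238 in the sh2 table, and Acacb the lowest at 1.32 and 1.47. The highest level was 883 times the lowest in the sh1 table and 841 times in the sh2 table. Between them lay, in falling order in the sh1 table, Me1, Fasn, Acly, Acaca, Srebf1, Scd1, Mlxipl and Elovl6. The sh2 table gave the same order except that Acly passed Fasn. Because no spread over libraries can be had, it is unknown which neighbours in this order differ beyond it.

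Set against 12504 coding genes in both tables, whose median was 60.8 per kb in the sh1 table and 64.0 in the sh2 table, 7 of the 10 genes lay above the median in the sh1 table. Scd1 was only just above it there, at 71.7 per kb. The 3 below were Mlxipl, Elovl6 and Acacb. The median of the 10 genes was 154 per kb and 173 per kb in the respective tables, and 3 genes in the sh1 table and 4 in the sh2 table were in the top 10% of coding genes. Their means together made up 0.266% and 0.276% of the summed means of all genes.

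**Figure D1:**
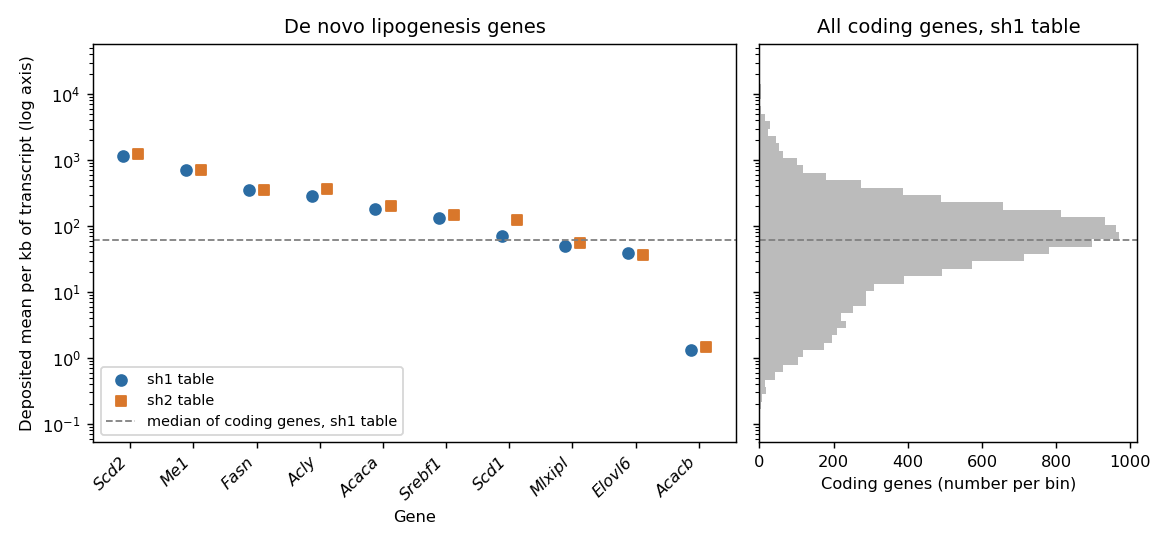
Deposited mean per kilobase of the longest coding transcript for the 10 genes (left, circles for the sh1 table and squares for the sh2 table) and its distribution over coding genes in the sh1 table (right), on a shared log axis; the dashed line is the coding gene median of 60.8 in the sh1 table, and no error bar can be drawn because each point is a single pooled mean. Scd2 stands at the top and Acacb far below the other 9 genes, and Scd1 shows the widest gap between the tables.

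Of the regulators, Srebf1 encodes SREBP-1, whose SREBP-1c form activates lipogenic genes when insulin is present. It lies at chr11:60012591-60036083 on the minus strand (mm9), and its pooled mean was 560.3 in the sh1 table and 624.2 in the sh2 table. Its level per kb, 130 and 145, placed it above 72.7% and 74.7% of coding genes. SREBP-1a and SREBP-1c share most exons and were counted together in this row. Srebf1 overlaps Rai1, which lies on the opposite strand and has a row of its own, and whether the counting used strand is not given in the sources used here.

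Mlxipl encodes ChREBP, the carbohydrate-responsive partner of Mlx, and lies at chr5:135582761-135614254 on the plus strand. Its pooled mean was 180.5 in the sh1 table and 204.2 in the sh2 table. Per kb, these values were 49.6 and 56.1, so that it stood slightly below the median coding gene in both tables. Srebf1 exceeded Mlxipl 2.63-fold per kb in the sh1 table and 2.59-fold in the sh2 table.

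Acly and Me1 supply the pathway. Acly, at chr11:100337667-100389314 on the minus strand, encodes ATP citrate lyase, which releases acetyl-CoA from citrate in the cytosol. Its pooled mean was 1274 in the sh1 table and 1605 in the sh2 table, or 288 and 363 per kb. Me1, at chr9:86474970-86589947 on the minus strand, encodes the cytosolic malic enzyme, a source of NADPH. Its mean, 2295 and 2308, corresponded to 697 and 701 per kb, above 96.6% of coding genes in the sh1 table. Per kb, Acly amounted to 0.41 of Me1 in the sh1 table and 0.52 in the sh2 table.

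The 2 acetyl-CoA carboxylases form malonyl-CoA, but in different places: the product of Acaca (ACC1) is cytosolic and feeds synthesis, and that of Acacb (ACC2) sits at the mitochondrial surface, where malonyl-CoA restrains fatty acid oxidation. Acaca, at chr11:83943174-84215153 on the plus strand, had pooled means of 1696 in the sh1 table and 1915 in the sh2 table. Acacb, at chr5:114596544-114700770 on the plus strand, had means of only 11.6 and 12.9. Per kb, Acaca exceeded Acacb 135-fold in the sh1 table and 137-fold in the sh2 table, so the carboxylase message of these cells was almost wholly Acaca. Acacb ranked above only 3.02% and 3.28% of coding genes in the respective tables. Although the coding sequences of the pair are 72.2% identical over 6911 aligned bases, they share no window of 31 bases. The longest run in common is 29 bases, in exon 38 of the Acaca transcript (chr11:84126334-84126362, plus strand) and exon 35 of the Acacb transcript (chr5:114678645-114678673, plus strand). It is printed with 18 coding bases on either side, the shared run in capitals, to show how little exact sequence the pair has in common.
Acaca: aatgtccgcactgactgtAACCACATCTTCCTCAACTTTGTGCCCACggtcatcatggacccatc
Acacb: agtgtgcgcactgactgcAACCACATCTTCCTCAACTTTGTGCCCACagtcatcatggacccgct

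Fasn encodes fatty acid synthase, the multifunctional enzyme that assembles palmitate. It lies at chr11:120667254-120685492 on the minus strand, and is 1 of the 4 of these genes on chromosome 11. Its pooled mean was 3377 in the sh1 table and 3423 in the sh2 table, or 352 and 357 per kb, above 91.8% and 91.6% of coding genes. Per kb, Fasn exceeded Acaca 1.98-fold in the sh1 table and 1.77-fold in the sh2 table. This order turns in both tables when the length of Acaca is counted without the part that stands elsewhere in the genome, as given with the copied sequences.

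Downstream of palmitate, Elovl6 encodes the elongase that extends it to stearate. It lies at chr3:129235304-129341413 on the plus strand, with pooled means of 229.8 in the sh1 table and 216.7 in the sh2 table, or 38.6 and 36.4 per kb. Elovl6 thus stood among the lower coding genes, above 38.2% and 35.7% of them. A pair of genes on chromosome 19 encodes stearoyl-CoA desaturases, which place the double bond of oleate and palmitoleate: Scd1, the main form of adult liver, at chr19:44468941-44482199 on the minus strand, and Scd2, better known from brain and early development, at chr19:44368166-44381354 on the plus strand.

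In AML12 cells Scd2 was far above Scd1. The pooled mean of Scd2 was 6371 in the sh1 table and 6751 in the sh2 table, against 347 and 594 for Scd1. Per kb, Scd2 exceeded Scd1 16.3-fold in the sh1 table and 10.1-fold in the sh2 table, and Scd1 contributed 5.79% and 9.02% of the pair's level. The other mouse desaturases of this family were close to undetected, with means of 3.23 and 3.63 for Scd4 and of 2.69 for Scd3, which had a row only in the sh2 table.

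The pair shares exact sequence in short stretches. The coding sequences of Scd1 and Scd2 are 90.4% identical over 1068 aligned bases, and 24.3% of 31-base coding windows of Scd1 occur in Scd2. The longest run in common is 147 bases. It spans the junction of exons 4 and 5 in both transcripts, at chr19:44476183-44476295 and chr19:44474831-44474864 (minus strand) in Scd1 and at chr19:44374192-44374304 and chr19:44375702-44375735 (plus strand) in Scd2. The run is shown in capitals, with 18 coding bases on either side, because a read that falls within it does not by itself tell the genes apart. Its mate may lie outside the run, and how such pairs were counted was not tested.
Scd1: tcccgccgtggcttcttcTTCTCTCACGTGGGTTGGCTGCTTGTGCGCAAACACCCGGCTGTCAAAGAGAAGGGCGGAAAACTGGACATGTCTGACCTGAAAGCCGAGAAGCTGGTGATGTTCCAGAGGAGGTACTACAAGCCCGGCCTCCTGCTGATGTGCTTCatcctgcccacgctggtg
Scd2: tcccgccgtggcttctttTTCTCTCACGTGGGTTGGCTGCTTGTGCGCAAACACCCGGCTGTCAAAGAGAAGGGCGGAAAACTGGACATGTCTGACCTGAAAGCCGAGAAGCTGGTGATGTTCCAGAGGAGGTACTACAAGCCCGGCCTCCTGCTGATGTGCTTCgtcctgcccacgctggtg
Over the whole transcripts, which carry long untranslated ends, 7.89% of 31-base windows of Scd1 and 5.61% of those of Scd2 occur elsewhere in the genome. Of windows of 100 bases, 1.98% for Scd1 and 0.318% for Scd2 occur letter for letter in the genomic sequence of another desaturase gene. Both searches used genomic sequence with introns, so shared windows that cross an exon junction, as in the run above, were missed. The sequence shared between the spliced messages is therefore larger than these percentages.

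The difference between the tables was then described gene by gene, as the log2 ratio of the pooled mean in the sh2 table to that in the sh1 table. The tables were normalized separately, so each ratio was centred on the median of the 13259 genes in both, which was 0.07 before centring. A ratio of this kind compares 2 pools that hold different knockdown libraries, and it contains no contrast with the control. Because the labels tie only 1 of the 3 control libraries to the sh2 table, the pools may also differ in their control libraries, and the part of either in a ratio cannot be told apart. Where the same control libraries stand in both pools, they make it smaller than the difference between the knockdown groups.

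Scd1 differed most. After centring, its pooled mean was 1.63-fold higher in the sh2 table, a log2 ratio of 0.70, against 0.77 without centring. Of the 4157 genes with a mean within 2-fold of its own in the sh1 table, 15 (0.361%) had a larger ratio in either direction. Of the 7757 genes whose means reached 100 in both tables, 20 had a larger absolute ratio and 7 a higher one. Scd2, on the same chromosome and close to it in coding sequence, had a ratio of 0.01. Acly came next, 1.20-fold higher in the sh2 table after centring (log2 ratio 0.26, or 0.33 without centring). A larger absolute ratio was found for 112 of 1923 genes of like level (5.82%), again set by the sh1 table alone.

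The other 8 genes lay well within the range of genes of their level. Ratios were 0.10 for Mlxipl, 0.10 for Acaca, 0.08 for Srebf1 and 0.08 for Acacb. Elovl6 had the lowest value, -0.16, a ratio that 25.7% of genes of like level exceeded in size. Me1 (-0.07) and Fasn (-0.05) were also below 0, but without centring their ratios were 0.0082 and 0.02, so their sign depends on the scaling. In all, 7 genes were above 0 and 3 below, and the median of the 10 was 0.08 against 0 for all genes. The median absolute ratio was 0.09, compared with 0.11 over all genes and 0.09 over genes whose means reached 100. An absolute ratio over 0.25 was found for 2 of the 10 genes and for 20.0% of all genes, or 8.68% of those whose means reached 100.

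**Figure D2:**
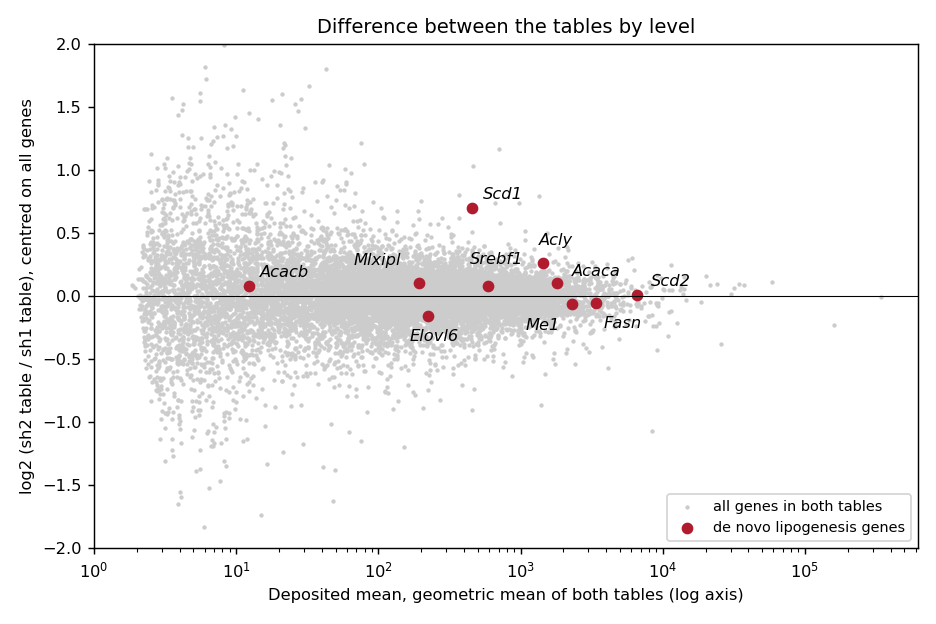
Centred log2 ratio of the pooled mean in the sh2 table to that in the sh1 table (vertical axis) against the geometric mean of the 2 pooled means (horizontal log axis) for all genes in both tables (grey) and for the 10 genes (red); 7 genes fall outside the axes. Scd1, at 0.70, stands above nearly all genes of its level and Acly, at 0.26, near their upper edge, while the other 8 genes lie between -0.16 and 0.10.

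Around the 10 genes, 39 further genes of the pathway were listed in 6 classes, and 34 had means of 10 or more in both. Their ratios were balanced, with 17 above and 17 below 0, a median of -0.0078 and a range of -0.25 to 0.25. Of these 34 genes, 28 were above the coding gene median per kb in the sh1 table. That median was taken over all coding genes, without the floor of 10 that the 34 genes had passed. The share of all genes past this floor that lay above the median was not computed, so the count stands without its background. In the SREBP processing class, Srebf2, the SREBP of the cholesterol pathway, was the highest per kb (278 and 328) and had the largest ratio, 0.16. Among partners and other lipogenic transcription factors, this was Nr1h2, the liver X receptor beta, with 156 and 195 per kb and a ratio of 0.24.

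Of the genes that supply acetyl-CoA, citrate and NADPH, Pgd, an enzyme of the pentose phosphate pathway, was the highest in the sh1 table at 332 per kb. In the sh2 table it stood at 336, just below the NADPH-producing isocitrate dehydrogenase gene Idh1 at 337, named after its value was seen. Acss2, which activates acetate, had the largest ratio, 0.25. The delta-6 desaturase Fads2 led the other elongases and desaturases in the sh1 table at 665 per kb and had their largest ratio, -0.18. In the sh2 table it stood at 618, below the delta-5 desaturase Fads1 at 646, which was 587 in the sh1 table and was also named after its values were seen. Elovl3 had no row. Of the regulators of acetyl-CoA carboxylase, Mid1ip1, which promotes polymerization of the enzyme, stood at 1019 and 1099 per kb, whereas its relative Thrsp (Spot 14) had means of only 2.35 and 2.79. Prkaa2, a catalytic subunit of the kinase AMPK that inhibits the carboxylases, had the largest ratio of that class, -0.25. For use of the product, Gpam, which starts glycerolipid synthesis, was the highest at 278 and 280 per kb, and Dgat2 had the largest ratio, -0.12. An absolute ratio over 0.25 was found for 3 of these genes, Acss2, Prkaa2 and the pyruvate kinase gene Pklr (0.25). All 3 were barely past that value, and 14.4% of all genes with means of 10 or more in both tables were past it. Pklr was named after its value was seen.

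The counts rest on read pairs that mapped to 1 place. The share of transcript sequence that also stands elsewhere differed sharply among the 10 genes, and the reads lost through it were not measured. Each transcript was cut into all windows of 31 bases, which were searched on both strands of the mm9 genome outside the gene. Srebf1, Acly, Acacb and Fasn had no window elsewhere, and Mlxipl had 1.36%. Elovl6 had 14.5%, Me1 44.4% and Acaca 72.3%.

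The windows of Acaca all fell in 1 place, chr12:10158950-10167009 on the plus strand. An alignment of this region to bases 1425 to 9508 of the 9513-base transcript formed 1 block of 8093 positions with 99.1% identity, 38 mismatches and 37 gap positions. GENCODE M1 annotates no gene there. The nearest annotated genes are a U6 RNA gene 286694 bases to the left and Nt5c1b 209770 bases to the right. The region holds the exons without the introns: of 53 coding exon junctions of Acaca with 30 coding bases on each side, 35 occur unbroken and letter for letter in it. For Me1, the same was true of 4 of 12 junctions in a region at chr13:62914513-62916875 (98.7% identity over 1982 aligned bases). A further, shorter Me1 match lay at chr1:65141724-65142355 (99.3% over 561 bases), between Crygb and Cryga. Neither Me1 region holds an annotated gene, whereas the Elovl6 match at chr13:22374144-22376997 (95.4% over 2618 bases) is the annotated pseudogene Gm11295.

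A junction of each gene is printed, the middle one of those found, to show that the spliced sequence stands in the genome without its intron. Lower case marks the upstream exon and capitals the downstream exon. That of Acaca joins exons 33 (chr11:84108518-84108547) and 34 (chr11:84113570-84113599), and the same 60 bases are at chr12:10161917-10161976. That of Me1 joins exons 11 (chr9:86489663-86489692) and 12 (chr9:86488195-86488224), read on the minus strand, and the same 60 bases are at chr13:62915677-62915736 on the plus strand.
Acaca: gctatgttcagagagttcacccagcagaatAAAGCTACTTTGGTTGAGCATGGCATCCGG
Me1: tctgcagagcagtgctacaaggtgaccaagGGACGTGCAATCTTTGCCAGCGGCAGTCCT

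For windows of 100 bases, 51.2% of those of Acaca and 22.8% of those of Me1 occur letter for letter in these regions. Dividing the pooled mean of Acaca only by the length left without them would give 365 per kb in the sh1 table and 412 in the sh2 table in place of 178 and 201, which moves it from the fifth to the third place, above Fasn (352 and 357) in both tables. Me1 would stand at 903 and 908 per kb, still below Scd2. These values apply if every read from a copied window was lost. Read lengths are not given in the sources used here, and the share of reads lost was not tested. Ratios between the tables compare a gene with itself and do not involve its length.

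**Figure D3:**
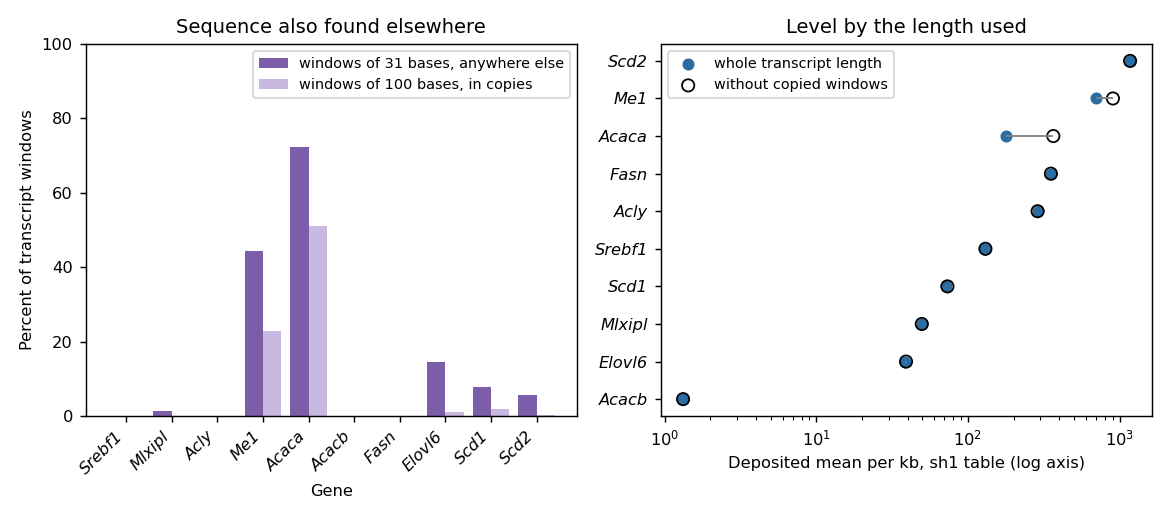
Left, percent of each transcript's windows of 31 bases found anywhere else in the mm9 genome (dark bars) and of windows of 100 bases found in a listed copy (light bars); right, deposited mean per kb in the sh1 table with the whole transcript length (filled circles) and with the length left without copied 100-base windows (open circles), on a log axis. Acaca, with 72.3% and 51.2% of windows copied, moves from 178 to 365 per kb and Me1 from 697 to 903, while the other 8 genes stay almost in place.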

How the data were processed

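RNA of infected AML12 cells was sequenced, and the authors used TopHat2 for mapping to mm9, HTSeq for counting concordant pairs with a unique position over GENCODE M1 genes, and DESeq2 (version 1.8.2, from the submitters' processing notes). The versions of the aligner and counter are not given in the sources used here. Each of the 2 deposited tables gives, per gene, a normalized signal, the mean over the libraries compared of counts divided by size factors. The other columns hold the authors' own comparison (log2 fold change, its standard error, Wald statistic, p-value and adjusted p-value) and were not used. No library values were used, so there was no test.

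The means were divided by transcript length, and ratios between the tables were centred on the median of all genes (pandas 2.3.3, numpy 2.4.6). All identifiers of the 13643 genes matched GENCODE M1. Transcripts were searched against the mm9 (NCBIM37) genome in windows of 31 bases. Regions with at least 100 distinct matching windows, leaving out windows found at more than 10 places, were aligned with blastn 2.17.0. Only the centring of the ratios was tested on simulated data, made without noise from a known scale and known folds. The other steps were not tested in this way. All 10 genes are described, and of each pathway class the gene with the highest level per kb and that with the largest ratio (means of 10 or more only). Genes and lists were chosen with earlier results of these data known. Alternatives were another length, another set of genes ranked and another centring.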

Additional observations from a re-analysis of the deposited data

How the results depend on the processing

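The number of genes above the median level, 7 of 10, was 9 without division by length, 7 with the union of exons as length and 6 when genes with means under 10 were left out. Ranking only genes annotated as protein-coding changes nothing by construction, since all 12504 genes with a level per kb are so annotated, and the count stays at 7. The median log2 ratio of 0.08 between the tables was 0.15 without centring, 0.087 when centred on genes whose means reached 100, 0.088 with those genes only and 0.10 when scaled to the summed means, a choice made after seeing the data. Without centring the ratio of Me1 was 0.0082 and that of Fasn 0.02, both below 0 otherwise, and 9 of 10 genes were above 0. No other gene changed sign under the scalings tried. With the union of exons as length, Elovl6 passed Mlxipl (38.6 against 33.6 per kb in the sh1 table). The lengths without copied windows, also chosen after seeing the data, moved Acaca to 365 per kb, and the share of its reads that was lost was not tested. No paired analysis was possible because the tables hold no value per library, and for the same reason no library could be left out. Depth, the spread between libraries and the level in each group are unknown.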
